A study of Mus musculus with 9 samples.

Results

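The chaperones of the endoplasmic reticulum (ER) and the genes of the unfolded protein response were followed as 40 named genes of the 48709 genes in the count tables. They were chosen by name and function, but with earlier results of these data known, so no test over the list was run. They comprised 14 chaperones and co-chaperones, 7 enzymes of oxidative folding, 3 genes of the ATF6 and IRE1 branches, 8 genes of the PERK branch and 8 genes of ER-associated degradation (ERAD). All 40 had enough counts to be tested, beside 17361 genes in all. In caffeine-treated Tg4-42 mice, 7 of them were lower than in vehicle-treated Tg4-42 mice, and all 7 were chaperones or folding enzymes, namely Hspa5, Hsp90b1, Calr, Canx, Hyou1, Pdia4 and Pdia6, beside 0.668% of all genes called lower. None of the 7 was called without caffeine replicate 3 or without vehicle-treated Tg4-42 replicate 1 or 3, and 1 was called with sequencing lane as a covariate. All but Hyou1 belonged to the 10 members of highest level. None of the sensors and transcription factors of the response, Atf6, Ern1, Xbp1, Eif2ak3, Atf4 and Ddit3, was called different between any groups. Of all genes, 0.0979% to 0.881% were called in the comparisons. At such shares the lack of a call does not set these genes apart, and their contrast with the 7 was not tested.

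RNA was sequenced from nuclei of the hippocampus that had been stained for the neuronal protein NeuN and sorted, in 3 groups of 3 mice. WT mice were C57BL/6J. Tg4-42 mice carry, on the same background, a transgene in which the neuronal murine Thy1 promoter drives human Aβ4-42 fused to the signal peptide of murine thyrotropin-releasing hormone, and were homozygous. Caffeine-treated Tg4-42 mice drank 300 mg/l caffeine for 4 months from 2 months of age, WT and vehicle-treated Tg4-42 mice drank tap water, and all mice were 6 months old. The sample labels name a treatment for the caffeine group only, and they state n = 6 where nuclei were isolated, whereas the study's methods state n = 3 for sequencing. No caffeine-treated WT mice were sequenced in these data, so caffeine alone was compared within the transgenic genotype only. Caffeine-treated Tg4-42 and WT mice differed in both genotype and caffeine, which cannot be told apart in that comparison.

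Secretory and membrane proteins fold in the ER, where Hsp70 and Hsp90 chaperones bind nascent chains, the lectins calnexin and calreticulin hold glycoproteins, and disulfide isomerases form and reshuffle disulfide bonds. When unfolded protein accumulates, the membrane sensors ATF6, IRE1 and PERK start the unfolded protein response. ATF6 is cleaved to a transcription factor, IRE1 splices Xbp1 mRNA, and PERK phosphorylates eIF2 alpha, which lowers translation but lets ATF4 be made. ATF6 and XBP1 switch on chaperone and ERAD genes, while ATF4 switches on CHOP (Ddit3) and genes of amino acid supply. Cleavage, phosphorylation and splicing are not measured by gene counts, and the RNA was nuclear, so the values below are transcript levels in sorted nuclei and not protein levels. The tap-water Tg4-42 mice addressed how neurons that make Aβ4-42 differ from WT, and the caffeine group what long-term caffeine changed in them.

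Libraries held 9342945 to 16376922 counted reads, at which 3 counts, taken as the limit of detection, equal 0.19 to 0.325 CPM (read counts scaled to a common library size, with TMM factors). This limit covers counting error only. The genes that lend the transgene its promoter and signal peptide followed the labels: Thy1 lay at 82.1 to 88.8 CPM in WT and at 461 to 670.1 CPM in the 6 Tg4-42 mice, and Trh at 1.81 to 4.39 CPM and 48 to 64.7 CPM. In each group, replicates 1 and 2 were sequenced on lane 6 and replicate 3 on lane 7. Nothing in the labels pairs mice across groups. Summed pan-neuronal markers, 8 genes that include the NeuN gene Rbfox3, came to 7263 to 7396 CPM in WT, 6597 to 8333 CPM in vehicle-treated and 5602 to 7009 CPM in caffeine-treated Tg4-42 mice. In the same order, 8 astrocyte markers summed to 430.1 to 567, 433 to 563 and 349 to 463 CPM, 10 oligodendrocyte markers to 329.7 to 491, 367 to 518 and 259 to 369 CPM, and 8 microglia markers to 26.3 to 35.6, 30 to 40.2 and 23.2 to 28.4 CPM. No marker gene of these lists was at 0 in every mouse, the glial ones included.

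The members spanned a wide range of levels, compared here as CPM per kilobase of merged exon. In WT, Calr (calreticulin, a lectin chaperone of the ER lumen) and Hspa5 (BiP, the ER Hsp70) were the highest, with middle values of 236 and 223 CPM per kilobase, above 99.3% of all tested genes. Their ranges over the 3 WT mice, 199.5 to 242 and 175 to 286 CPM per kilobase, overlapped, so their order was not resolved. Canx (calnexin, the membrane-bound lectin chaperone) followed with 169.7, then Pdia3 (ERp57, the disulfide isomerase partner of the lectins) with 144, Hsp90b1 (Grp94, the ER Hsp90) with 137 and Pdia6 (the isomerase P5) with 129 CPM per kilobase. Pdia3, Hsp90b1 and Pdia6 overlapped each other in WT. The sensors were far lower, Atf6 at 10.3, Eif2ak3 (PERK) at 4.1 and Ern1 (IRE1 alpha) at 0.97 CPM per kilobase. Xbp1 stood at 66.7, Atf4 at 39.1 and Ddit3 at 12.5 CPM per kilobase. Derl3 (a derlin of the retrotranslocation machinery) and Trib3 (a pseudokinase induced by ATF4 and CHOP) were the lowest with 0.866 and 0.517 CPM per kilobase, and rested on 20 to 70 and 11 to 24 counts per mouse. In vehicle-treated Tg4-42 mice, Hspa5 led with 327 CPM per kilobase before Calr with 308, and in caffeine-treated mice the same genes led with 172 and 168 CPM per kilobase.

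**Figure D1:**
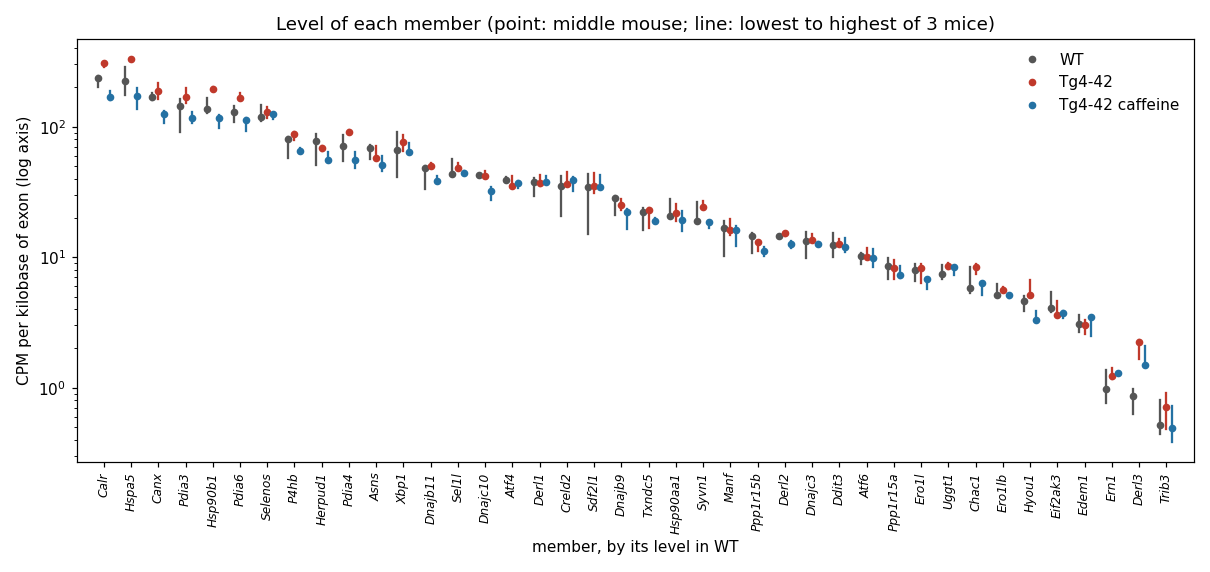
Level of each of the 40 members in CPM per kilobase of exon on a log axis, ordered by the level in WT, with the middle mouse as a point and the lowest to highest mouse as a line for WT, vehicle-treated and caffeine-treated Tg4-42 mice. The lectin chaperones, BiP, Grp94 and the isomerases stand at the left, and Ern1, Derl3 and Trib3 at the right end.

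Between caffeine-treated and vehicle-treated Tg4-42 mice, 7 of the 40 members fell and none rose, by edgeR's quasi-likelihood test with Benjamini-Hochberg adjustment over all 17361 genes. Among all genes tested, 0.881% were called, 0.668% lower and 0.213% higher. The 7 were 5 of the 14 chaperones and 2 of the 7 oxidative folding enzymes, while 0 of 3 ATF6 and IRE1 genes, 0 of 8 PERK genes and 0 of 8 ERAD genes were called. The log2 fold change was below 0 in 36 members, against 51.5% of all genes (34 to 40 members when 1 mouse was left out), and its median was -0.21 over the members and -0.01 over all genes. By branch, the median was -0.32 for chaperones, -0.39 for oxidative folding, -0.10 for ATF6 and IRE1, -0.14 for PERK and -0.19 for ERAD. At an unadjusted p under 0.05, 14 members were lower and 0 higher, beside 9.82% and 7.15% of all genes. All 3 caffeine-treated mice lay below all 3 vehicle-treated mice in 17 members, beside 12.6% of all genes. As these are bulk libraries, fewer nuclei of a neuron type with a high level and less RNA per nucleus cannot be told apart.

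**Figure D2:**
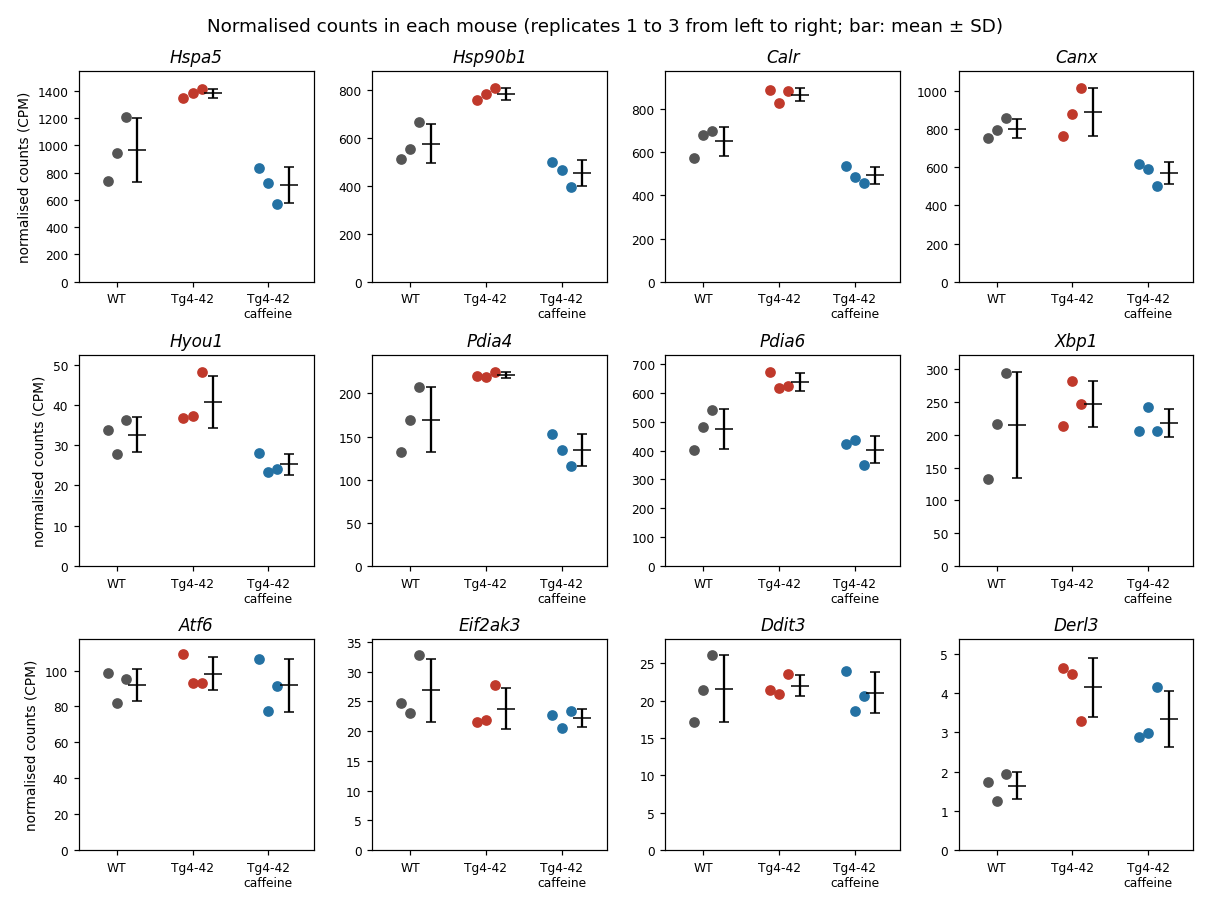
Normalised counts in CPM, on linear axes from 0, of 12 members in each of the 9 mice, with replicates 1 to 3 from left to right and the mean ± SD beside them. In the 7 members called between caffeine and vehicle, from Hspa5 to Pdia6, every caffeine-treated mouse lies below every vehicle-treated Tg4-42 mouse, while Xbp1, Atf6, Eif2ak3 and Ddit3 overlap between these groups.

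The decrease of Hspa5 was the largest among the members. Hspa5 (ENSMUSG00000026864, chr2:34771970-34777547) had 1348, 1383 and 1417 CPM in the 3 vehicle-treated Tg4-42 mice and 831, 727 and 574 CPM in the 3 caffeine-treated mice. The groups did not overlap, the vehicle-treated mice lay close together, and the caffeine-treated mice spread widely with replicate 3 the lowest. Hspa5 fell by 48.6%, with a log2 fold change of -0.96 ± 0.17 (SE) and an adjusted p of 0.0385. WT mice had 739, 944 and 1208 CPM, so that replicate 1 was inside and replicates 2 and 3 were above the caffeine range.

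Hsp90b1 (ENSMUSG00000020048, chr10:86690209-86705509) stood at 757, 781 and 809 CPM with vehicle and at 498, 466 and 396 CPM with caffeine. It fell by 42% (log2 fold change -0.79 ± 0.14, adjusted p = 0.0362), with no overlap. Of its exon bases 10.3% also belong to 1810014B01Rik on the opposite strand, and 10% of its 50-base windows occur in other genes, where the reads of a kit that does not keep strand cannot be told apart.

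The lectin chaperones fell as well. Calr (ENSMUSG00000003814, chr8:84841850-84846934) had 887, 831 and 886 CPM with vehicle and 537, 485 and 458 CPM with caffeine. It fell by 43.2% (log2 fold change -0.81 ± 0.13, adjusted p = 0.0211), the smallest adjusted p of the set. Canx (ENSMUSG00000020368, chr11:50293961-50325673) had 766, 882 and 1017 CPM and 618, 590.1 and 503 CPM (log2 fold change -0.64 ± 0.14, adjusted p = 0.0462). In Canx the vehicle-treated mice were the more scattered group, with replicate 1 the lowest of the 3. Uggt1, the glucosyltransferase that returns misfolded glycoproteins to these lectins, was not called, with 104 to 117 CPM and 93.1 to 111 CPM and a log2 fold change of -0.09 ± 0.12.

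Hyou1 (ENSMUSG00000032115, chr9:44379490-44392369), Grp170, which exchanges the nucleotide of BiP, had 36.7, 37.3 and 48.2 CPM with vehicle and 28.2, 23.4 and 24.1 CPM with caffeine. Its log2 fold change was -0.69 ± 0.16 with an adjusted p of 0.0497, at the edge of the threshold.

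The J-domain partners of BiP gave smaller differences. Dnajc10 (ERdj5, with reductase activity) had 205, 209 and 227 CPM and 173, 161 and 138 CPM, without overlap, and a log2 fold change of -0.44 ± 0.12 with an adjusted p of 0.086 in edgeR. Dnajb11 (ERdj3) had 155, 171 and 162 CPM and 122, 136 and 124 CPM, also without overlap, and a log2 fold change of -0.36 ± 0.14 with an adjusted p of 0.217. Both missed the threshold although their groups were apart. Dnajb9 (ERdj4) and Dnajc3 (p58IPK) overlapped between the groups, with log2 fold changes of -0.29 ± 0.16 and -0.12 ± 0.15.

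Values of 3 small luminal proteins of the response lay nearer to 0 than that of BiP, and this contrast with BiP was not tested. Sdf2l1, a partner of ERdj3, had a log2 fold change of 0.01 ± 0.30, Manf, a secreted BiP-binding protein, -0.15 ± 0.20, and Creld2, a luminal oxidoreductase, -0.07 ± 0.21, and all 3 overlapped between caffeine and vehicle. The cytosolic Hsp90aa1 had a log2 fold change of -0.20 ± 0.16, and 58.5% of its 50-base windows occur in other genes, chiefly Gm12346, so its count is uncertain.

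Among the oxidative folding enzymes, Pdia4 and Pdia6 fell. Pdia4 (ENSMUSG00000025823, chr6:47796141-47813430, the isomerase ERp72) stood at 220.0, 219 and 225 CPM with vehicle and at 153, 134 and 116 CPM with caffeine (log2 fold change -0.72 ± 0.15, adjusted p = 0.0428). Pdia6 (ENSMUSG00000020571, chr12:17266545-17284770) stood at 674, 616 and 623 CPM and 422, 438 and 349.7 CPM (log2 fold change -0.66 ± 0.14, adjusted p = 0.0399). Pdia4 fell by 39.4% and Pdia6 fell by 36.8%, and caffeine replicate 3 was the lowest of all 9 mice in both.

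Pdia3 had 477, 617 and 531 CPM and 363, 409 and 336 CPM, with a log2 fold change of -0.55 ± 0.18 and an adjusted p of 0.135. P4hb, the isomerase PDI itself, had 225, 259.5 and 249.6 CPM and 185, 197 and 179 CPM, with -0.39 ± 0.14 and an adjusted p of 0.172. Neither was called, though neither overlapped between the groups. The remaining enzymes, Txndc5 (ERp46) and the oxidases Ero1l and Ero1lb that recharge PDI, had log2 fold changes of -0.14 ± 0.16, -0.28 ± 0.15 and -0.16 ± 0.13. Ero1lb shares 13.9% of its 50-base windows with other genes.

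The ATF6 and IRE1 branches were not called. Atf6 had 109, 92.9 and 92.9 CPM with vehicle and 106, 77.2 and 91.6 CPM with caffeine (log2 fold change -0.10 ± 0.14, adjusted p = 0.762). Ern1 had 9.52, 9.95 and 11.6 CPM and 10.7, 10.5 and 10.6 CPM (0.03 ± 0.22, adjusted p = 0.962). Xbp1 had 213, 282 and 247 CPM and 205, 242 and 206 CPM (-0.18 ± 0.22, adjusted p = 0.73). In each of the 3 the groups overlapped. The count of Xbp1 covers its spliced and unspliced forms together.

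The PERK branch was not called either. Eif2ak3 had 21.6, 21.9 and 27.8 CPM with vehicle and 22.7, 20.5 and 23.4 CPM with caffeine (log2 fold change -0.10 ± 0.17, adjusted p = 0.807). Atf4 had 83.2, 79.6 and 98.9 CPM and 87.7, 79.5 and 90.4 CPM (-0.02 ± 0.12, adjusted p = 0.943). Ddit3 had 21.5, 20.9 and 23.6 CPM and 24, 18.6 and 20.6 CPM (-0.06 ± 0.17, adjusted p = 0.886). These 3 genes, from the kinase to CHOP, overlapped between the groups. Of the targets of ATF4, Chac1, a glutathione-degrading enzyme, had 12.1, 14.5 and 13.8 CPM and 8.45, 10.4 and 10.4 CPM without overlap (-0.47 ± 0.20, adjusted p = 0.258). Asns, asparagine synthetase, had 157, 151 and 193 CPM and 162, 138 and 125 CPM and overlapped (-0.24 ± 0.14, adjusted p = 0.406). Trib3 and the eIF2 alpha phosphatase subunits Ppp1r15a (GADD34) and Ppp1r15b (CReP) had log2 fold changes of -0.39 ± 0.42, -0.11 ± 0.17 and -0.18 ± 0.14. Of the exon bases of Eif2ak3, Ppp1r15b and Ddit3, 8.05%, 11.4% and 3.97% overlap Gm43292, Gm26616 and Mars on the opposite strand, where reads cannot be told apart.

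In ERAD, the HRD1 ubiquitin ligase gene Syvn1 had 114, 130.2 and 117 CPM with vehicle and 92.7, 81.3 and 90 CPM with caffeine, without overlap, and a log2 fold change of -0.45 ± 0.14 with an adjusted p of 0.128. Derl2 had 123, 117 and 124 CPM and 106, 102 and 95.3 CPM (-0.27 ± 0.11, adjusted p = 0.219). Both were lower in all 3 caffeine-treated mice and missed the threshold. Herpud1 (a membrane component of the HRD1 complex) and Sel1l (the adaptor of HRD1) did not overlap between the groups either, at -0.23 ± 0.16 and -0.15 ± 0.13. Edem1, Derl1 and Selenos, which direct glycoproteins and retrotranslocation, had log2 fold changes of 0.08 ± 0.18, 0.02 ± 0.13 and -0.07 ± 0.13.

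**Figure D3:**
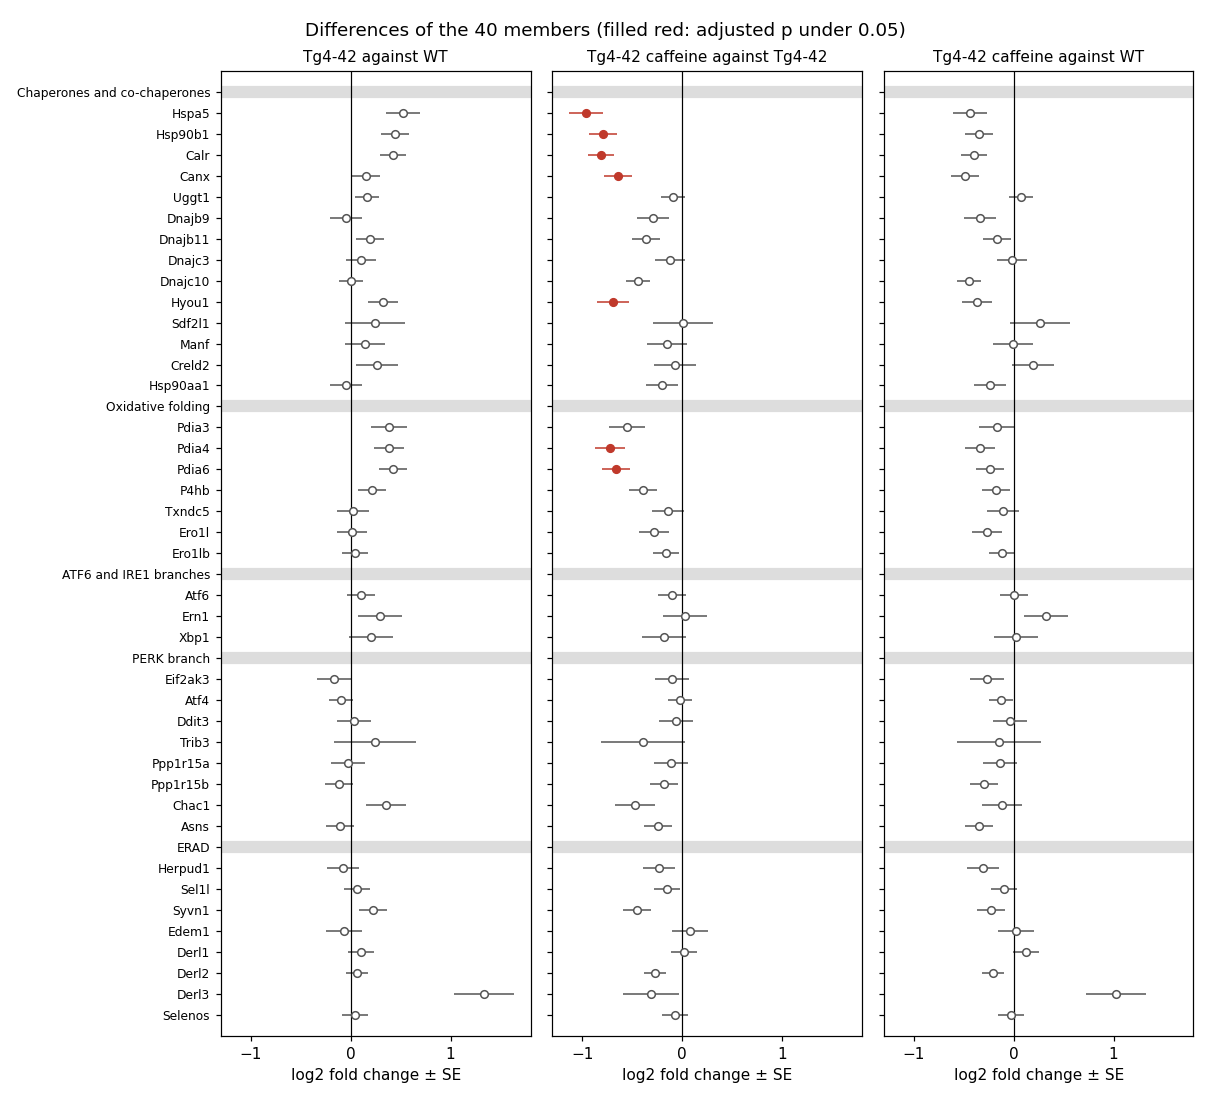
Log2 fold change ± SE of each of the 40 members in the 3 comparisons, grouped by branch, with members at an adjusted p under 0.05 in filled red. The 7 red members all lie left of 0 in the caffeine against vehicle panel, and no member is red in the comparisons with WT.

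These calls depended on single libraries. Replicate 3 was the only library of its group on lane 7, so mouse and lane cannot be told apart where it was left out. With caffeine replicate 3 or vehicle-treated Tg4-42 replicate 3 left out, 0 of the 40 members and 0 of all genes were called by edgeR, with 11 members lower at an unadjusted p under 0.05 each time, and without vehicle-treated Tg4-42 replicate 1, 0 members and 3 genes were called, with 14 members lower at that level. Without caffeine replicate 2 only Calr remained, without vehicle-treated Tg4-42 replicate 2 Hspa5, Hsp90b1 and Calr remained, and with lane as a covariate only Calr was called. The sizes moved little: the log2 fold change of Hspa5 lay between -1.09 and -0.83 and that of Calr between -0.88 and -0.76 over the 6 fits that each left out 1 mouse. DESeq2 called 8 members, the same 7 and Dnajc10, but it called 765 of all 17361 genes, where edgeR called 153.

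**Figure D4:**
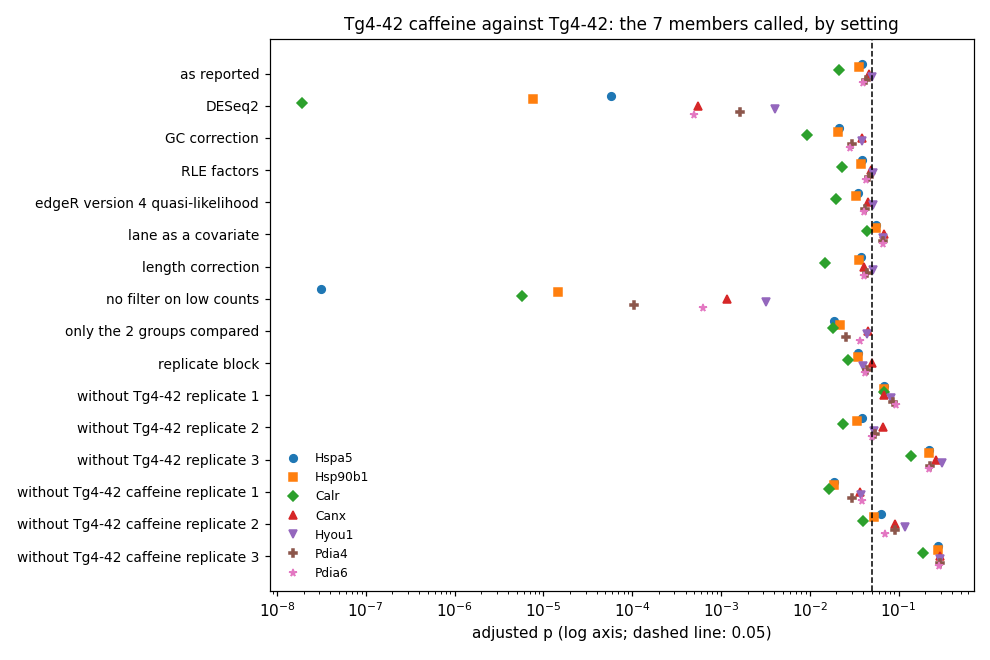
Adjusted p on a log axis of the 7 members called between caffeine-treated and vehicle-treated Tg4-42 mice, as reported, under each alternative and without each mouse, with the threshold of 0.05 dashed. Most points lie close to the threshold; those of DESeq2 and of the fit without a filter lie far below it, and all 7 genes lie above it without caffeine replicate 3 and without Tg4-42 replicates 1 or 3.

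The individual mice differed along the whole set. Caffeine replicate 3 was the lowest of its group in 21 of the 40 members, beside 33% of all genes. It was the lowest of all 9 mice in 6 of the 7 called members, and vehicle-treated Tg4-42 replicate 3 the highest in 5. These 7 were picked by the difference between these groups, which favours extremes there, so these counts are no further support for the calls. WT replicate 1 was the lowest of its group in 29 members, beside 35.7% of all genes, and WT replicate 3 the highest in 26, beside 32.6%. Summed over the 14 chaperones, the level was 3289, 3867 and 4356 CPM in the WT mice, 4615, 4805 and 5053 CPM in the vehicle-treated and 3252, 3063 and 2629 CPM in the caffeine-treated Tg4-42 mice. Summed over the 7 oxidative folding enzymes it was 1130.3, 1525 and 1673 CPM, 1744, 1903 and 1811 CPM and 1276, 1338 and 1130.3 CPM. In both sums every caffeine-treated mouse lay below every vehicle-treated Tg4-42 mouse, and no WT mouse reached the vehicle-treated range. The abundant called members weigh heavily in these sums, so the separation is not independent of their calls. With vehicle, Hspa5 had a mean of 1383 CPM in a mean chaperone sum of 4825 CPM. Taken singly, 7 of the 14 chaperones and 5 of the 7 folding enzymes were lower in every caffeine-treated mouse, beside 12.6% of all genes. The WT and caffeine-treated mice overlapped in the folding enzymes, and in the chaperones WT replicate 1 was only just above the highest caffeine-treated mouse. The 8 PERK genes summed to 418, 464 and 423 CPM, 379, 391 and 457 CPM and 397, 352 and 348 CPM, and here caffeine and vehicle overlapped.

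Between vehicle-treated Tg4-42 and WT mice, 0 of the 40 members were called by edgeR, with 7 at an unadjusted p under 0.05, all of them higher, and 0 by DESeq2. Of all genes, 0.0979% were called, and 1.65% were higher and 1.09% lower at an unadjusted p under 0.05. The median log2 fold change was 0.12 over the members and 0.00 over all genes, and without WT replicate 1 the median of the members was -0.00. All 3 Tg4-42 mice lay above all 3 WT mice in 7 members, namely Derl3, Calr, Hsp90b1, Pdia6, Hspa5, Pdia4 and Hyou1, beside 3.57% of all genes. This comparison shares the vehicle-treated Tg4-42 mice with the one above, so a high or low value in these mice enters both in opposite directions.

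Derl3 had the largest value, at 1.73, 1.26 and 1.94 CPM in WT and 4.65, 4.49 and 3.29 CPM in vehicle-treated Tg4-42 mice. The difference was 1.33 ± 0.30 on the log2 scale with an unadjusted p of 0.000393 and an adjusted p of 0.256 in edgeR, on few counts. Without the filter on low counts the adjusted p was 0.042. Caffeine-treated mice had 2.87, 2.97 and 4.15 CPM, above all WT mice and overlapping with vehicle.

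The abundant chaperones had smaller values in the same direction, with every adjusted p at 1. Hspa5 had 739, 944 and 1208 CPM in WT and a log2 fold change of 0.52 ± 0.17. Hsp90b1 had 511, 552 and 666 CPM in WT (0.44 ± 0.14), and Calr 575, 679 and 698 CPM (0.42 ± 0.13). In each, WT replicate 1 was the lowest and the WT mice were more spread than the vehicle-treated Tg4-42 mice. Pdia6 had 404, 482 and 540.1 CPM in WT (0.42 ± 0.14), Pdia4 132, 169 and 208 CPM (0.38 ± 0.15) and Pdia3 288, 451 and 507 CPM (0.38 ± 0.18). Pdia3 overlapped between the groups. Hyou1 had 33.7, 27.9 and 36.4 CPM in WT (0.32 ± 0.15), and Canx 755, 796 and 857 CPM (0.15 ± 0.14) with overlap.

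The sensors and transcription factors overlapped between Tg4-42 and WT mice. In WT, Atf6 had 98.9, 81.8 and 95.2 CPM (log2 fold change 0.10 ± 0.14), Ern1 7.92, 6.25 and 11.3 CPM (0.29 ± 0.22) and Xbp1 133, 217 and 294 CPM (0.20 ± 0.22). Eif2ak3 had 24.7, 23 and 32.8 CPM (-0.17 ± 0.17), Atf4 92.1, 97.1 and 91.7 CPM (-0.10 ± 0.12) and Ddit3 17.2, 21.4 and 26.2 CPM (0.03 ± 0.17). Xbp1 was the most variable of the 6 in WT, with replicate 3 the highest of all 9 mice. For the PERK branch as a whole the median log2 fold change was -0.07.

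Between caffeine-treated Tg4-42 and WT mice, 0 members were called by edgeR, with 8 lower and 1 higher at an unadjusted p under 0.05. DESeq2 called 3 members lower, Calr, Canx and Dnajc10, and 568 genes in all. Of all genes, edgeR called 0.415%, while 8.65% were lower and 6.78% were higher at an unadjusted p under 0.05. The median log2 fold change was -0.16 over the members and -0.01 over all genes. All 3 caffeine-treated mice lay below all 3 WT mice in 6 members and above them in 1, beside 9.67% and 9.14% of all genes. Dnajc10 had 217, 212 and 214 CPM in WT, all above the caffeine-treated mice (log2 fold change -0.45 ± 0.12, adjusted p = 0.0926). Canx (-0.49 ± 0.14, adjusted p = 0.109), Calr (-0.40 ± 0.13, adjusted p = 0.149) and Hsp90b1 (-0.35 ± 0.14, adjusted p = 0.236) also lay lower in every caffeine-treated mouse, as did Derl2 (-0.21 ± 0.11) and Atf4 (-0.13 ± 0.12). Hspa5 overlapped (-0.44 ± 0.17, adjusted p = 0.241), as did Pdia4 (-0.34 ± 0.15), Hyou1 (-0.37 ± 0.15) and Pdia6 (-0.24 ± 0.14). Asns had 188, 197 and 155 CPM in WT (-0.35 ± 0.14, adjusted p = 0.251). The member with a higher value was Derl3 (1.02 ± 0.30, adjusted p = 0.126). Dnajb11, P4hb, Syvn1, Derl2 and Chac1, which reached an unadjusted p under 0.05 with caffeine against vehicle only, overlapped between caffeine-treated and WT mice, except Derl2. WT values were 109, 163 and 156 CPM for Dnajb11, 165, 239.8 and 229 CPM for P4hb and 89.1, 91.5 and 130.0 CPM for Syvn1. They were 113, 117 and 119 CPM for Derl2 and 13.7, 9.54 and 8.66 CPM for Chac1.

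The wider pathways were read from lists of other genes of known function, which were put together with earlier results of these data known. Of 44 tested other ER folding genes, 0 were called with caffeine against vehicle by edgeR, while 20 were lower and 2 higher at an unadjusted p under 0.05, and the median log2 fold change was -0.26. The smallest p-values were those of Calu (calumenin, a calcium-binding ER protein; log2 fold change -0.60 ± 0.14, adjusted p = 0.0529) and Hspa13 (an ER-associated Hsp70; -0.62 ± 0.15, adjusted p = 0.0613). Among 29 other ERAD genes, Os9, the lectin that hands glycoproteins to HRD1, fell from 279, 253 and 251 CPM to 195, 166 and 150.0 CPM (-0.61 ± 0.13, adjusted p = 0.0399), and the median was -0.09. Of the 29, 4 were lower at an unadjusted p under 0.05. For these lists and those that follow, the share of all genes lower at that level against vehicle is the 9.82% given above.

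Of 20 other sensor and branch genes, 0 were called with caffeine against vehicle by edgeR, with 5 lower at an unadjusted p under 0.05. The log2 fold change was below 0 in 11 of the 20 and above 0 in 9. Its median was -0.05, beside -0.01 over all genes. Bcap31, an ER sorting protein, had -0.57 ± 0.14 (adjusted p = 0.0648) and Wfs1, the ER membrane protein wolframin, -0.56 ± 0.15 (adjusted p = 0.0916). Wfs1, which also marks CA1 pyramidal cells, was called lower in caffeine-treated Tg4-42 than in WT mice (-0.77 ± 0.15, adjusted p = 0.0408). Of 27 other targets of ATF4 and CHOP, the amino acid transporter gene Slc7a3 fell against vehicle (-0.89 ± 0.18, adjusted p = 0.0399) and against WT (-0.97 ± 0.18, adjusted p = 0.0297), the median against vehicle was -0.20, and 4 were lower and 2 higher at an unadjusted p under 0.05. The 2 higher were Cebpb (C/EBP beta, a transcription factor; 1.52 ± 0.53, adjusted p = 0.171) and Bbc3 (the apoptosis gene PUMA; 0.81 ± 0.34, adjusted p = 0.241), both of low level. Cebpb had 0.866, 1.67 and 1.77 CPM with vehicle and 2.72, 2.35 and 7.61 CPM with caffeine, and Bbc3 had 3.68, 4.3 and 2.65 CPM and 5.44, 5.6 and 7.69 CPM. Of 19 cytosolic heat shock genes, 0 were called and 3 were lower at an unadjusted p under 0.05. Hspa8, the constitutive cytosolic Hsp70, had 189.7, 179.5 and 212 CPM with vehicle and 148, 117 and 97.4 CPM with caffeine (-0.68 ± 0.16, adjusted p = 0.0559), and Cryab, a small heat shock protein, -0.70 ± 0.24 (adjusted p = 0.159). The median of the cytosolic list was -0.16. Without caffeine replicate 3 the median was -0.05 and without vehicle-treated Tg4-42 replicate 3 it was -0.07. In these 5 lists, edgeR called 0 genes between Tg4-42 and WT mice. The calls of Os9 and Slc7a3 against vehicle rested on single mice: over the 6 fits that each left out 1 mouse their adjusted p went up to 0.287, with log2 fold changes of -0.72 to -0.53 and -1.01 to -0.71, and neither was called without caffeine replicate 2 or 3 or without vehicle-treated Tg4-42 replicate 1 or 3, nor Slc7a3 without replicate 2. Against WT, Slc7a3 was not called without caffeine replicate 3 or WT replicate 1 or 2 (adjusted p up to 0.277), and Wfs1 not without caffeine replicate 2 or 3 or WT replicate 2 or 3 (adjusted p up to 0.341).

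Markers of cell types moved with the same comparison. All 14 dentate granule cell markers had higher values with caffeine than with vehicle (13 without caffeine replicate 3 or vehicle-treated Tg4-42 replicate 3), 2 of them called, and their sum was 988 to 1273 CPM in WT, 826 to 1309 CPM with vehicle and 1518 to 1850.0 CPM with caffeine. The 2 were Plk5 (log2 fold change 1.52 ± 0.26, adjusted p = 0.0385) and Stxbp6 (0.81 ± 0.16, adjusted p = 0.0399). All 8 interneuron markers were lower, with Slc32a1, the vesicular GABA transporter, called (-0.93 ± 0.20, adjusted p = 0.0462), and summed to 951 to 1038, 943 to 1477 and 709.8 to 884 CPM in the same order. The 12 CA pyramidal markers had a median log2 fold change of 0.01 (-0.15 to 0.31 when 1 mouse was left out) and summed to 633 to 832, 601 to 724 and 557 to 629 CPM. The median was -0.67 for astrocyte, -0.62 for oligodendrocyte and -0.51 for microglia markers, with 7 of 8, 9 of 9 and 7 of 7 tested genes lower and 0 called by edgeR, and 4, 5 and 1 lower at an unadjusted p under 0.05. None of Plk5, Stxbp6 and Slc32a1 was called without caffeine replicate 3 or vehicle-treated Tg4-42 replicate 1 or 3, nor Plk5 without caffeine replicate 2, nor Slc32a1 without caffeine replicate 1 or vehicle-treated Tg4-42 replicate 2 (adjusted p up to 0.222, 0.278 and 0.287). Endothelial markers lay at 7.37 to 9.22, 7.36 to 9.15 and 6.47 to 8.3 CPM, and the 5 choroid plexus markers at 56.5 to 87.2, 17.1 to 147 and 19.3 to 56.9 CPM. Of 17 immediate early genes, 0 were called by edgeR in any comparison. At an unadjusted p under 0.05, 2 were lower in Tg4-42 against WT and 1 was higher in each comparison of caffeine-treated mice. Their median log2 fold change was -0.29 in Tg4-42 against WT, with 16 lower. With caffeine against vehicle it was -0.15, with 11 lower and 6 higher, but 0.14 without caffeine replicate 3 and 0.13 without vehicle-treated Tg4-42 replicate 3. In caffeine-treated Tg4-42 against WT mice it was -0.38, with 16 lower. Jun had 0.80 ± 0.20 (adjusted p = 0.0802) with caffeine against vehicle and Junb -0.50 ± 0.22 (adjusted p = 1) in Tg4-42 against WT. In Tg4-42 against WT mice, all 8 interneuron markers were higher, with a median log2 fold change of 0.26. So were 8 of 9 oligodendrocyte (median 0.23) and 6 of 7 microglia markers (0.29). The median was 0.04 for astrocyte, -0.02 for dentate granule and -0.13 for CA pyramidal markers. None of these markers was called there by edgeR. At an unadjusted p under 0.05, 2 interneuron markers and 1 microglia marker were higher, beside 1.65% of all genes. The part of these shifts in the chaperone differences of either comparison was not tested.

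The promoters of the members were searched for the elements through which the response is known to act. RefSeq promoters (GRCm38.p6, 250 bases before to 50 after a gene's start) matched 34 of the 40 members. Their starts can differ from the gene positions given above, which for Hspa5, Hsp90b1 and Calr reach into the stretches printed below. Distances below are from the RefSeq start. The ER stress response element (ERSE), which ATF6 binds together with NF-Y, was searched on both strands as CCAAT, 9 free bases and CCACG. It occurred in 39 of 32851 promoters (0.119%) and in 10 of the 37 promoters of members, which belong to 10 of the 34 members with a promoter. These were Hspa5, Hsp90b1, Calr, Canx, Pdia6, Derl3, Dnajc3, Creld2, Syvn1 and Ero1lb. As the members were chosen as genes of this response, a higher share of its elements than over all promoters was built into the choice. Of the 7 members called lower with caffeine, 5 held an ERSE, Pdia4 held none in this window, and no promoter of Hyou1 was in the table. The 250 bases before the start of the 3 chaperone genes with the smallest p are shown 5′ to 3′ on the strand of the gene, with the ERSE in capitals, which reads as its reverse complement where it lies on the opposite strand:
Hspa5 (chr2:34771840-34772089, plus strand): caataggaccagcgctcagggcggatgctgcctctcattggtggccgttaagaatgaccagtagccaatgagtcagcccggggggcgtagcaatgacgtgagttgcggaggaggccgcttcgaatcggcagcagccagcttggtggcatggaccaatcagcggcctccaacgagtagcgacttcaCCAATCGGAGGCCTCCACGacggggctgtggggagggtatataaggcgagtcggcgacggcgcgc
Hsp90b1 (chr10:86705445-86705694, minus strand): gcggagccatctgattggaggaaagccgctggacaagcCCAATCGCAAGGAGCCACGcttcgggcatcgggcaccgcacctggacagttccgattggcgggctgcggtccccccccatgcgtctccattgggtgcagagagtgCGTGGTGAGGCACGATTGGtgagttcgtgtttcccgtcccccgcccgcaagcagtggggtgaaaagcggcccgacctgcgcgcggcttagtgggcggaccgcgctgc
Calr (chr8:84846932-84847181, minus strand): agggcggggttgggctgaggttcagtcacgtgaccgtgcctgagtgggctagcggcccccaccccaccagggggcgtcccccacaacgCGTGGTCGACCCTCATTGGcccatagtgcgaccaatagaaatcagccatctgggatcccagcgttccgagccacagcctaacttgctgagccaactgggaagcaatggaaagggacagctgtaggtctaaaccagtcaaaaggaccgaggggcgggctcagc

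Between the element and the start lay 46 bases in Hspa5 and 143 bases in Calr, and Hsp90b1 had an element on each strand, 193 and 88 bases from the start. The other members with an ERSE are shown with 10 bases on each side, to compare the fixed ends and the free middle of the element:
Canx: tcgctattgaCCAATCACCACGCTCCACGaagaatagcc
Pdia6: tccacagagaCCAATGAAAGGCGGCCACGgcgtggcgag
Derl3: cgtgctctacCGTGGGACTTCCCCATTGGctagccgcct
Dnajc3: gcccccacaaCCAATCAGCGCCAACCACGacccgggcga
Creld2: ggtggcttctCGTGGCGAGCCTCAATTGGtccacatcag
Syvn1: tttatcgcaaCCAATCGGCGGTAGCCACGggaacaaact
Ero1lb: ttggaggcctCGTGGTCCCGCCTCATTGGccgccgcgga

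The element lay 126 bases from the start in Canx, 79 in Pdia6, 137 in Derl3, 86 in Dnajc3, 107 in Creld2, 25 in Syvn1 and 182 in Ero1lb. The log2 fold change with caffeine against vehicle was below 0 in all 10 members with an ERSE (9 of 10 without caffeine replicate 1 or without vehicle-treated Tg4-42 replicate 2), with a median of -0.55 and a range from -0.96 to -0.07. In the 24 members with a promoter and no ERSE the log2 fold change was below 0 in 21, with a median of -0.21, and 1 of them, Pdia4, was called. It was also below 0 in 5 of the 6 members whose promoter was not matched. The 9 other tested genes with an ERSE in their promoter had a median of -0.43, from -1.80 to 0.24, and 0 were called by edgeR, with Adcy3, Alg12 and Xlr3a lower at an unadjusted p under 0.05. Members with an ERSE were not all lower to the same degree, and Creld2, Dnajc3 and Ero1lb held one at log2 fold changes of -0.07, -0.12 and -0.16. The split by ERSE went along with level. Calr, Hspa5, Canx, Hsp90b1 and Pdia6, called and with an ERSE, ranked 1, 2, 3, 5 and 6 of the members in WT. The rest of the 10 highest, Pdia4, Pdia3, P4hb, Herpud1 and Selenos, held none and had -0.72, -0.55, -0.39, -0.23 and -0.07. The parts of element and level were not tested. In Tg4-42 against WT mice, the medians were 0.34 for members with an ERSE and 0.05 for members with a promoter and none. A match of these letters is a description and does not show that a factor was bound.

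**Figure D5:**
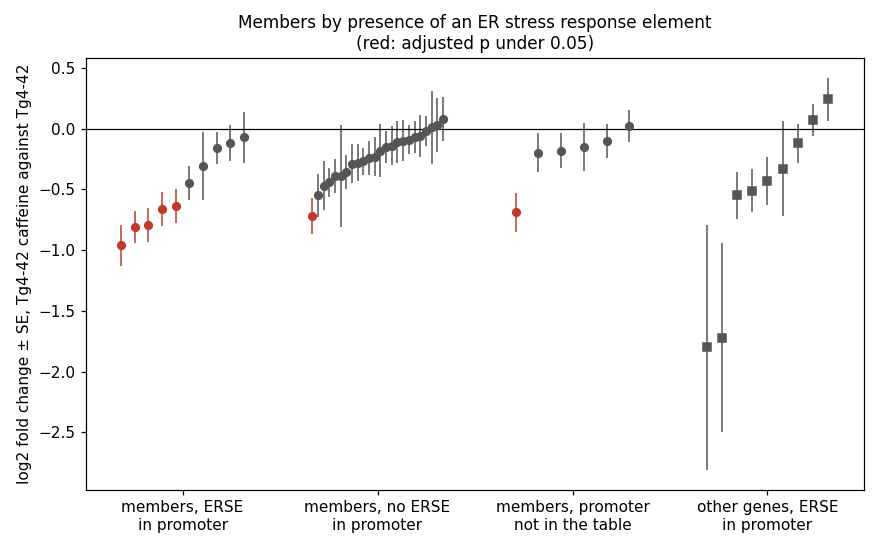
Log2 fold change ± SE between caffeine-treated and vehicle-treated Tg4-42 mice for the 10 members with an ERSE in the promoter, the 24 without, the 6 whose promoter was not in the table, and the 9 other tested genes with an ERSE (squares), with called genes in red. The 5 lowest members with an ERSE are called, and the 2 far-low squares, Xlr3b and Xlr3a, have wide errors.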

How the data were processed

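Per the labels, the authors sorted NeuN-stained hippocampal nuclei, prepared libraries with a low-input kit that does not keep strand and sequenced single-end 50-base reads. They aligned to mm10 with STAR, and deposited exon counts per gene from featureCounts without normalization. Counts of all 9 libraries were read in R 4.3.3 with edgeR 4.0.16. Genes passed edgeR's filter (minimum count 10, minimum total 15), were scaled by TMM and fitted with the robust legacy quasi-likelihood method, the 3 groups in 1 fit. P-values were adjusted by Benjamini-Hochberg over 17361 genes and called under 0.05. The biological coefficient of variation was 0.163. Log2 fold changes have standard errors from the F statistic. CPM used TMM-scaled totals. The script was tested on simulated data.

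Positions, lengths and symbols (48349 of 48709 genes) came from GENCODE M21 on GRCm38. Replicates were numbered in the order of their records, which names a mouse and pairs none. P-values test a difference between groups against the spread between mice within groups. With 3 mice a group, that spread was estimated over the groups together and moderated across genes. The members and gene lists were chosen with earlier results of these data known, and tests over the list alone were therefore not run. Values in each mouse are given for members with an adjusted or unadjusted p under 0.05 in any comparison and for Hspa5, Hsp90b1, Calr, Xbp1, Atf6, Ern1, Eif2ak3, Atf4 and Ddit3. From each other list, called genes or the 2 with the smallest p are named; Adcy3, Alg12, Cebpb, Bbc3, Xlr3a and Xlr3b were named after their values were seen. Alternatives were DESeq2 1.42.0, RLE factors, no filter, only the 2 groups compared, a replicate block, lane as a covariate, corrections for GC content and exon length, and each mouse left out. The quasi-likelihood method of edgeR version 4 was added after seeing the data. Protein sequences were not analysed here, nor were the promoters of Hyou1, Manf, Hsp90aa1, Atf6, Ppp1r15b and Derl1. Dr5 in the list of CHOP targets is another name of Tnfrsf10b, which was listed too and was too low to be tested.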

Additional observations from a re-analysis of the deposited data

How the results depend on the processing

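Members called with caffeine against vehicle numbered 7, between 6 and 8 under DESeq2, RLE factors, no filter, only the 2 groups, the GC and length corrections and edgeR version 4, and 1 with lane as a covariate, where 9 genes in all were called. Leaving out 1 mouse gave 0 to 7 members and 0 to 341 of all genes, beside 153. All genes called in this comparison were 765 with DESeq2, 262 with the GC correction and 987 without a filter, and the share called higher was 24.2% as reported and 35.5%, 37.9% and 36.2% with the GC correction, DESeq2 and no filter; the cause was not tested. In Tg4-42 against WT, 1 member was called without a filter (Derl3), and 26 genes with DESeq2 and 74 without a filter, beside 17; leaving out 1 mouse gave 0 to 0 members and 14 to 18 genes. In caffeine against WT, DESeq2 called 3 members and the fit without a filter 1 (Canx), and all genes called were 568 with DESeq2, 153 with the GC correction, 42 with lane and 860 without a filter, beside 72; leaving out 1 mouse gave 0 to 0 members and 16 to 287 genes. The median log2 fold change of the members lay, without 1 mouse, between -0.00 and 0.19 in Tg4-42 against WT (0.12 as reported), between -0.26 and -0.15 in caffeine against vehicle (-0.21) and between -0.26 and -0.10 in caffeine against WT (-0.16). Under the other alternatives it moved by less than the spread between mice, and no member with an unadjusted p under 0.05 changed direction under any alternative.

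Replicate numbers follow the order of the records, and no label ties mice across groups, so they were not used to pair mice. With the replicate block, 6 members (all but Canx of the 7) and 187 genes were called with caffeine against vehicle, 0 members and 16 genes in Tg4-42 against WT and 0 members and 82 genes in caffeine against WT. Deviations from the group means correlated between mice of the same number at -0.17 to 0.18 for caffeine and vehicle, 0.14 to 0.19 for Tg4-42 and WT and -0.17 to 0.01 for caffeine and WT, and every mouse correlated best with its own number only between Tg4-42 and WT. With 3 mice a group, most adjusted p-values of the called members lay close to the threshold, and Derl3 and Trib3 rested on few counts.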

Other observations

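Other elements were rarer among the members. ERSE-II, searched as ATTGG, 1 free base and CCACG, was in 12 of 32851 promoters (0.0365%) and in those of Herpud1 and Dnajb11. The unfolded protein response element TGACGTGG was in 222 promoters (0.676%) and in that of Txndc5 only. The C/EBP-ATF response element TGATGNAA, through which ATF4 acts, was in 1304 promoters (3.97%) and in those of Asns, Chac1, Trib3, Herpud1 and Txndc5, of which the first 3 belong to the PERK branch. No element found in a member overlapped another. With caffeine against vehicle these 5 had log2 fold changes of -0.24 ± 0.14 for Asns, -0.47 ± 0.20 for Chac1, -0.39 ± 0.42 for Trib3, -0.23 ± 0.16 for Herpud1 and -0.14 ± 0.16 for Txndc5, and none was called by edgeR, with Chac1 at an unadjusted p under 0.05.

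Pdia5, a disulfide isomerase outside the 40 members, had the opposite sign to its relatives. It stood at 11.1, 10.5 and 13 CPM in WT, 10.2, 13.3 and 11 CPM in vehicle-treated and 15.9, 17.7 and 22.5 CPM in caffeine-treated Tg4-42 mice, with a log2 fold change of 0.70 ± 0.19 and an adjusted p of 0.0885 against vehicle. It was not called, and it was singled out after its value was seen.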
